A study of Mus musculus with 8 samples.

Results

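Autophagy and lysosome genes were followed in ventricular heart tissue of mouse embryos that lack the transcription factor ATF4. The group held 32 genes, chosen by symbol from what their products are known to do, and all 32 were among the 52778 features of the deposited table. Every one was expressed well enough to be tested. They make up 32 of the 15545 genes tested.

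RNA was taken at embryonic day 11.5 from 4 controls, given in the labels as C57BL/6 WT, and from 4 samples labelled as Atf4 frameshift mutants and as a global ATF4 knockout. The mutants are homozygous for a small CRISPR/Cas9 deletion, 7 bases long and in exon 3 of Atf4, which per the labels ends protein production and keeps the polyadenylation signal. The allele is present in all cells of the embryo, so the heart was not the only tissue without ATF4, and the labels name no drug. The labels do not say whether a sample is 1 heart or a pool, nor which litter it came from.

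The labels conflict in places: the genotype field of the mutants also reads C57BL/6 WT, and the extraction text speaks of cultured cortical neurons. For the libraries, the extraction text names depletion of rRNA and the design text a stranded kit for mRNA, so the library type behind the TPM is uncertain. Groups were therefore taken from the sample titles. The 8 cardiomyocyte markers summed to between 37355 and 40265 TPM per library and the 6 neuronal markers to between 9.94 and 15.3 TPM, with Snap25 at no more than 0.038 TPM. Atf4 mRNA itself averaged 112 ± 8.07 TPM in controls against 166 ± 15.1 TPM in mutants (SD, n = 4 each). The deletion leaves most of the transcript in place, so this value does not check the loss of the protein. TPM is a share of all transcripts that is scaled for transcript length. It keeps no read depth, so error was judged from the 4 libraries of each genotype alone. In bulk tissue, fewer cells of a type and less RNA per cell cannot be told apart.

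Autophagy carries cytoplasm to the lysosome for breakdown. The ULK1 kinase complex starts it, the VPS34 lipid kinase complex marks the forming membrane with phosphatidylinositol 3-phosphate, and 2 ubiquitin-like conjugation systems attach ATG8 proteins such as LC3 to that membrane. Cargo receptors, among them p62, tie ubiquitin-marked cargo to the ATG8 proteins, and the closed vesicle then fuses with the lysosome. Genes of the pathway are driven by TFEB and TFE3, which bind E-boxes in lysosomal and autophagy genes, and, in starved or stressed cells, several of them also by ATF4 and its partner CHOP. Hearts rely on autophagy around birth and in later life.

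Promoter windows were searched for the letters these factors are known to bind, on both strands, in 300 bases per transcript start (250 before it and 50 after) from RefSeq on GRCm38.p6. A window was found for 26 of the 32 genes, 30 windows in all. TGATGNAA, the core of the amino acid response element bound by ATF4 with a partner, occurred in none of the 30, against 3.97% of all 32851 windows. A count of 0 in 30 windows is not far from that share. Counted by gene, it occurred in 0 of these 26 genes and in 6 of the 14 with a window on a list of textbook ATF4 targets. That list was chosen with results of these data known. TCACGTGA, the CLEAR element of TFEB and TFE3, occurred in 1 of the 30 windows of these genes (3.33%), that of Atg3, against 0.974% of all windows. The E-box core CACGTG, which the CLEAR element contains, occurred in 5 of the 30 windows (16.7%), 1 each of Lamp1, Atg3, Atg5, Atg7 and Atg14, against 7.15% of all windows. These are matches of letters in short windows and do not show binding. Counts of 1 and 5 windows are small, and their distance from the share over all windows was not tested.

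The 250 bases before the transcript start are printed for 3 genes whose values follow below: Lamp1, the most abundant of the 32 and the one with the most E-box cores, Atg3, the one with the CLEAR element, and Atg7, the one with the largest difference between genotypes. E-box cores, and for Atg3 the whole CLEAR element, are in capitals.
Lamp1, chr8:13158911-13159160, plus strand: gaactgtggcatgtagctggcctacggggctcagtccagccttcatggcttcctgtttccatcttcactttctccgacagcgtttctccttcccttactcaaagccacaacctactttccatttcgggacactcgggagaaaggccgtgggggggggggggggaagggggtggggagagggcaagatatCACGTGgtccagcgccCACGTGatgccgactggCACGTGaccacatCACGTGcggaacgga
Atg3, chr16:45158579-45158828, plus strand: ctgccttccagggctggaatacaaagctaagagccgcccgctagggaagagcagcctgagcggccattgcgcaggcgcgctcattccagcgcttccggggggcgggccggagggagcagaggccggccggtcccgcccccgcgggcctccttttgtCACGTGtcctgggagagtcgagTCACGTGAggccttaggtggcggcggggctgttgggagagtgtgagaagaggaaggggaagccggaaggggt
Atg7, chr6:114670846-114671095, plus strand: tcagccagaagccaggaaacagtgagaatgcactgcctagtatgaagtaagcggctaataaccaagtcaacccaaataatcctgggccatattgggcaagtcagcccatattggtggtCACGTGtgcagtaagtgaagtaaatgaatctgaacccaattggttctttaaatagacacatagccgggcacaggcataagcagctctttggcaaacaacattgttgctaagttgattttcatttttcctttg
Counting back from the first transcribed base, the 4 E-box cores of Lamp1 start at -61, -45, -28 and -15, those of Atg3 at -94 and -71, and that of Atg7 at -132. The Atg7 window belongs to a transcript that starts 27969 bases inside the listed gene, so it does not describe the outermost start.

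The comparison of genotypes asked whether transcripts of this machinery differ in the heart when ATF4 is lost. None of the 32 genes passed an adjusted p of 0.05 in either direction (limma, Benjamini-Hochberg over all genes tested), a count of 0, where 0.0386% of all genes tested passed, 0.00643% as higher and 0.0322% as lower in mutants. With no adjustment, 2 members had a p below 0.05, against 6.1% of all genes. These were 1 with higher values in mutants, Atg7, against 2.65% of all genes, and 1 with lower values, Atg12, against 3.45%. In no member did the 4 mutant values lie wholly apart from the 4 control values. This was so for 3.68% of all genes, a share at which a count of 0 among 32 does not set the members apart. Of the 32 members, 12 had a positive and 20 a negative log2 fold change, with a median of -0.025 beside -0.0033 over all genes tested. Over all genes, 7490 were positive and 8055 negative. Without control replicate 1 the members' median was -0.0029, and over all fits without 1 library it lay between -0.031 and that value. The median size of the difference regardless of sign was 0.044, beside 0.055 over all genes.

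**Figure D1:**
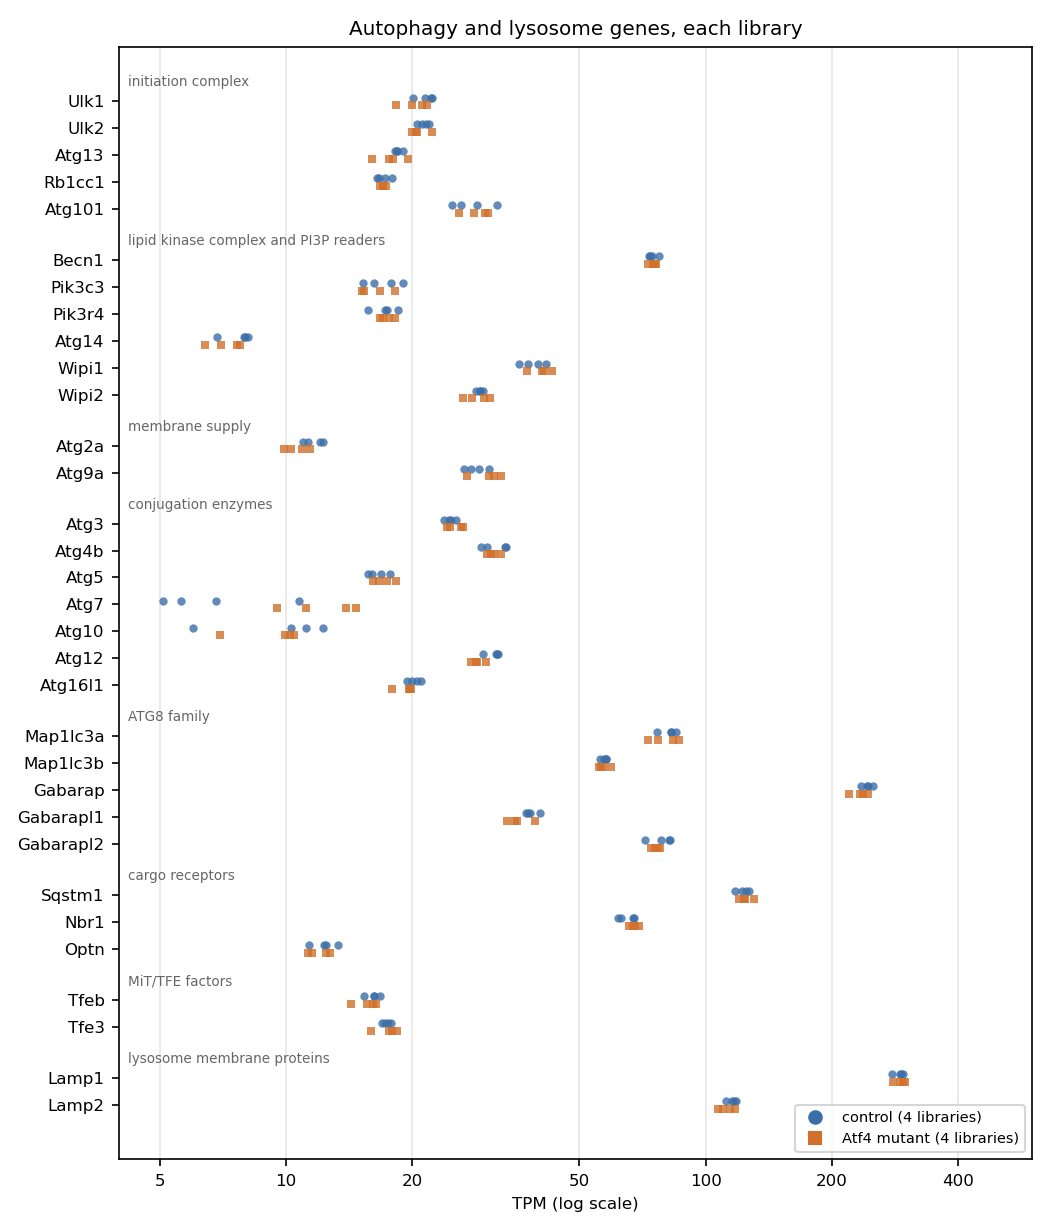
TPM of the 32 autophagy and lysosome genes (log axis) in each of 4 control libraries (circles) and 4 mutant libraries (squares), grouped by role. Levels run from about 7.46 TPM for Atg14 to 290.5 TPM for Lamp1 as means over 8 libraries, and the groups overlap in every row.

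The intervals give the size of change that the data leave possible. Over the 30 genes other than Atg7 and Atg10, the 95% intervals of the log2 fold change, not adjusted for the number of genes, lay between -0.27 and 0.24. For scale, the 5 textbook ATF4 targets that passed the threshold in the same fit fell by 0.37 to 0.59, namely Phgdh, Iars, Cars, Aldh1l2 and Yars. That target list, chosen with results of these data known, had a median log2 fold change of -0.25 over its 14 tested genes, all of them negative. Among the 32 genes, the interval of Atg10 alone reached below -0.37. That yardstick comes from targets picked because they passed, and the smallest fall on the list, that of Shmt2, was -0.041. The intervals of Atg10, Atg14 (from -0.27) and Atg2a (from -0.26) reached below the list's median of -0.25.

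**Figure D2:**
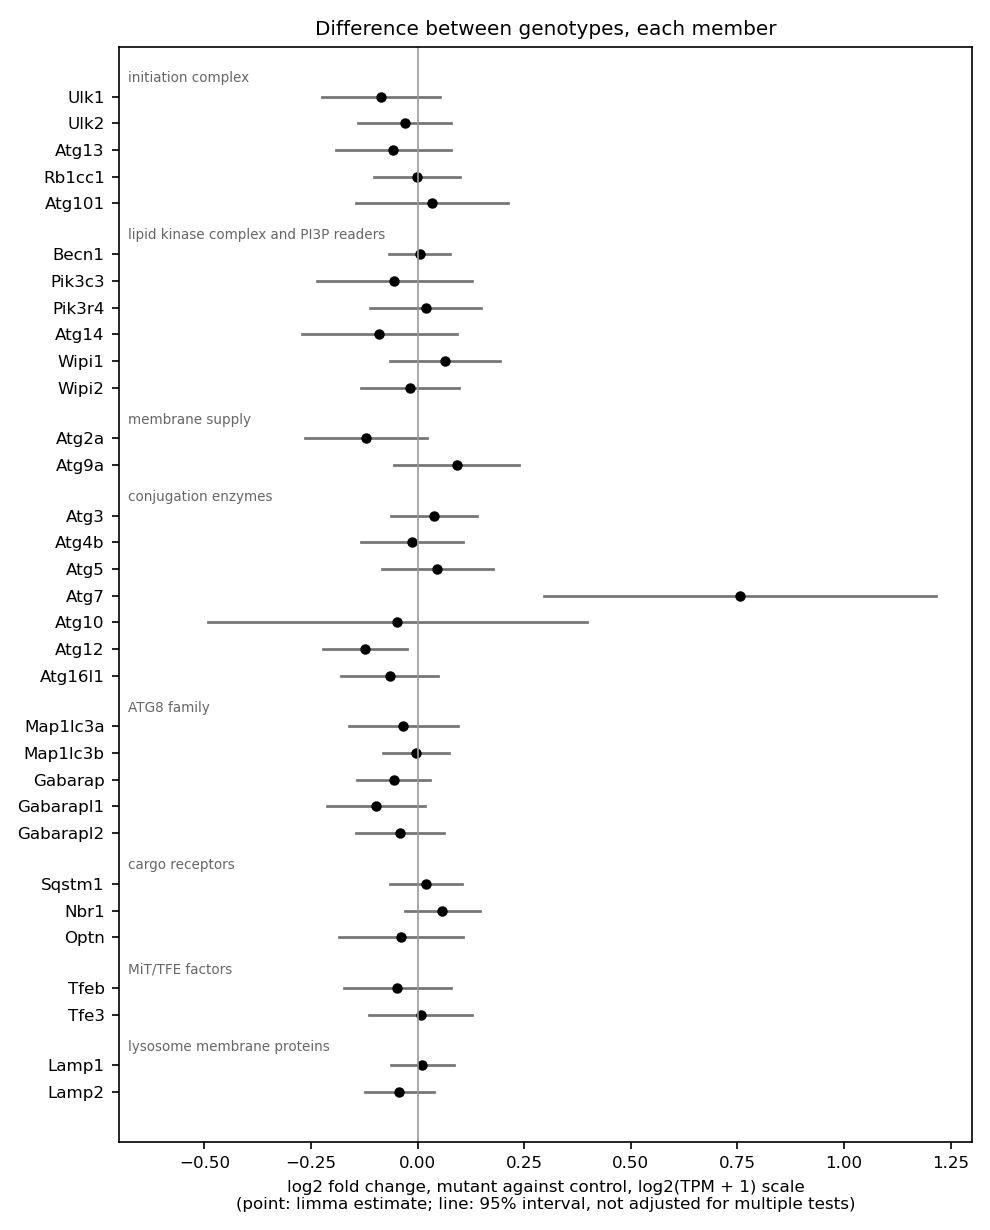
Log2 fold change of each member, mutant against control, on the log2(TPM + 1) scale, as the limma estimate (point) with its 95% interval (line). The intervals of Atg7 and Atg12 leave out 0 before any adjustment, and those of Atg7 and Atg10 are the widest.

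The initiation complex was represented by Ulk1 and Ulk2, the kinases, and by Atg13, Rb1cc1 (FIP200) and Atg101, which hold the complex together. None of these 5 passed, and 4 of the log2 fold changes were negative. Ulk1 had the smallest p in the group, with 21.5, 22.2, 20.1 and 22.3 TPM in control replicates 1 to 4 and 21.1, 19.99, 21.7 and 18.3 TPM in mutant replicates 1 to 4. All but 1 of the mutant values, that of replicate 4, lay close to or within the control range, and the log2 fold change, with its standard error, was -0.085 ± 0.062 (limma, unadjusted p of 0.199, adjusted p of 0.896). Ulk2 was at 21.3 ± 0.609 TPM in controls and 20.8 ± 1.04 TPM in mutants (SD, n = 4 each), a level close to that of Ulk1. Rb1cc1 was at 17.0 ± 0.610 and 17.0 ± 0.216 TPM, with a log2 fold change of -0.0013. Atg13 was at 18.5 ± 0.350 TPM and 17.8 ± 1.44 TPM. Atg101 was the most abundant of the 5, at 27.9 ± 3.04 TPM in controls and 28.5 ± 2.00 TPM in mutants.

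In the lipid kinase complex, Pik3c3 encodes the catalytic subunit VPS34, Pik3r4 its VPS15 partner, Becn1 the scaffold Beclin 1, and Atg14 the subunit that directs the complex to autophagy. Wipi1 and Wipi2 encode proteins that read the lipid mark. Their levels differed widely within the group: Becn1 held 74.7 ± 1.73 TPM in controls and 74.9 ± 1.54 in mutants, while Atg14, the lowest of all 32 genes, held 7.72 ± 0.592 and 7.19 ± 0.627 TPM (SD, n = 4 each). The interval for Becn1, from -0.067 to 0.077, was the narrowest of the 32. Wipi1 had the smallest p in the group. Its control values were 37.8, 41.6, 35.9 and 39.9 TPM and its mutant values 41.3, 37.5, 42.9 and 40.8 TPM, and the groups overlapped (log2 fold change 0.064, standard error 0.057, limma adjusted p of 0.923). Wipi2 was at 28.9 ± 0.453 and 28.6 ± 1.91 TPM. Pik3c3 (17.0 ± 1.66 and 16.4 ± 1.41 TPM) and Pik3r4 (17.2 ± 1.13 and 17.4 ± 0.644 TPM), whose products bind each other, were expressed at like levels in both groups. None of the 6 passed, with 3 positive and 3 negative log2 fold changes.

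Atg2a, for a lipid transfer protein that feeds the growing membrane, and Atg9a, for the lipid scramblase that supplies its seed vesicles, leaned in opposite directions without passing. Atg2a held 10.95, 12.2, 11.3 and 12.0 TPM in controls and 11.4, 10.9, 10.3 and 9.87 TPM in mutants. Of the 4 mutant values 3 lay below every control value, and mutant replicate 1 lay inside the control range. The log2 fold change, with its standard error, was -0.12 ± 0.064 (limma, unadjusted p of 0.0886, adjusted p of 0.843). For Atg9a the values were 28.4 ± 1.69 TPM in controls and 30.3 ± 2.42 TPM in mutants, a log2 fold change of 0.091 with an adjusted p of 0.896.

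The conjugation enzymes held both genes with an unadjusted p below 0.05. ATG7 is the E1-like enzyme of both conjugation systems, ATG3 and ATG10 are the E2-like enzymes, ATG12, ATG5 and ATG16L1 form the complex that directs lipidation, and ATG4B trims the ATG8 proteins. Atg7 (GRCm38, chromosome 6, bases 114643127 to 114860604) held 10.7, 6.79, 5.61 and 5.08 TPM in control replicates 1 to 4 and 14.7, 9.51, 11.2 and 13.9 TPM in mutant replicates 1 to 4. All but 1 of the controls lay below every mutant, and control replicate 1 lay within the mutant range. The log2 fold change of 0.76 ± 0.205 (SE, interval from 0.30 to 1.22) was the largest of the 32, with an unadjusted p of 0.00454 and an adjusted p of 0.720 in limma. Without control replicate 1 the log2 fold change was 0.95 and the adjusted p 0.279, and over all fits that left out 1 library the adjusted p ranged from 0.279 to 0.946. Of the features that overlap Atg7, the highest averaged 0.139 TPM.

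The spread of Atg7 within a genotype was itself unusual for the group. Its residual SD was 0.352 on the log2(TPM + 1) scale, beside a median of 0.070 over the 32 members and 0.103 over all genes tested. Among the 4879 genes with a mean of 5 to 20 TPM, 95.6% had a residual SD no larger than that of Atg7. Atg10 was as scattered (residual SD 0.340), with 12.3, 10.3, 6.00 and 11.2 TPM in controls and 10.5, 9.94, 6.97 and 10.2 TPM in mutants. The low value stood in replicate 3 of both genotypes, and the replicate numbers are not known to link libraries. The other 30 members had residual SDs between 0.031 and 0.127. Atg4a, which is not one of the 32 and encodes another ATG8 protease, went further, from 1.75 to 9.13 TPM in controls and from 1.62 to 9.29 TPM in mutants. It shares 2867 bases with Psmd10 on the opposite strand. Mitf, for another MiT/TFE factor and also outside the 32, held 14.03 TPM in mutant replicate 3 and 25.5 to 30.4 TPM in the other mutants, with a residual SD of 0.354. The program and transcript models behind the TPM are not stated, and their part in these jumps, and so in the difference of Atg7, was not tested. These genes were singled out after their values were seen.

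**Figure D3:**
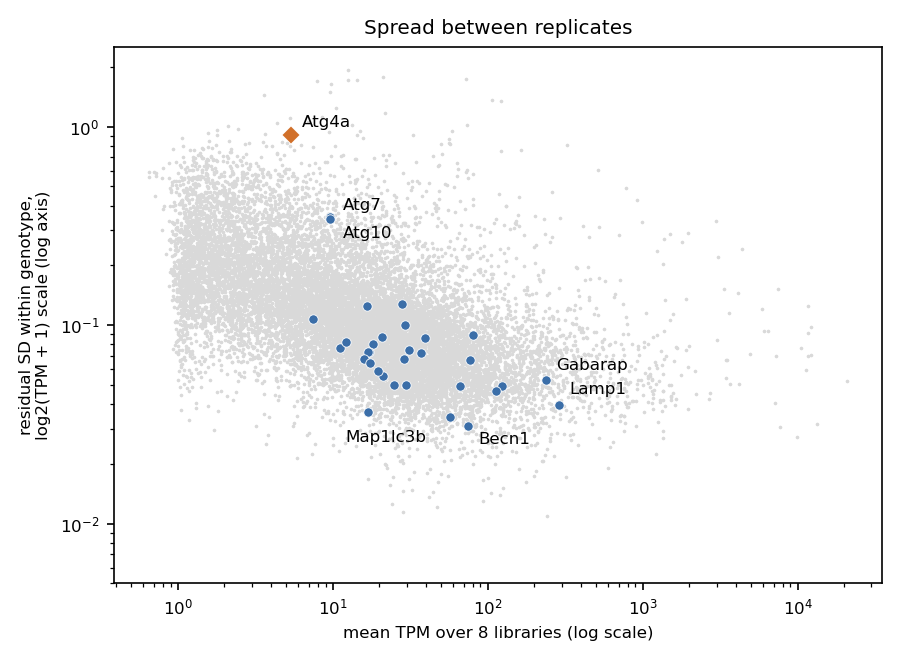
Residual SD within genotype on the log2(TPM + 1) scale against mean TPM over the 8 libraries (both axes log) for all genes tested (grey), the 32 members (circles) and Atg4a (diamond). Atg7 and Atg10 lie above the other members, with residual SDs of 0.352 and 0.340, and Becn1 is lowest at 0.031.

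Atg12 (GRCm38, chromosome 18, bases 46732417 to 46741724) had slightly lower values in mutants. The controls held 32.0, 29.5, 31.7 and 31.8 TPM and the mutants 28.3, 27.7, 29.9 and 28.6 TPM. The groups overlapped by 1 library on each side, control replicate 2 and mutant replicate 3. The log2 fold change, with its standard error, was -0.12 ± 0.044 (limma, unadjusted p of 0.0188, adjusted p of 0.787). Atg12 shares 31 bases with Ap3s1 on the opposite strand, which averaged 33.9 TPM, and the strand setting of the counting is not stated. Of its partners in the same complex, Atg5 was at 16.5 ± 0.894 TPM in controls and 17.1 ± 0.934 TPM in mutants, and Atg16l1 at 20.2 ± 0.693 and 19.3 ± 0.930 TPM (SD, n = 4 each).

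Atg3, the gene with the CLEAR element printed above, held 24.8, 24.5, 25.4 and 23.8 TPM in controls and 26.1, 24.6, 24.2 and 26.4 TPM in mutants. These groups overlapped almost wholly, and the log2 fold change was 0.038 with an interval from -0.063 to 0.14 (limma adjusted p of 0.942). Atg4b, the main ATG8 protease, was at 31.5 ± 2.13 and 31.1 ± 1.04 TPM. In the group of 7 enzymes, 3 log2 fold changes were positive and 4 negative.

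The ATG8 family, whose members coat the membrane and recruit cargo, was the role in which all 5 log2 fold changes were negative, each small and none past the threshold. They ranged from -0.097 to -0.0042, with a median of -0.041. Negative values were also the more common sign among the 32 members (20) and the 15545 genes tested (8055). With 1 library left out, Map1lc3a reached 0.0082 and Map1lc3b 0.0072. Gabarap was the most abundant in controls at 243 ± 6.24 TPM, Map1lc3a (81.8 ± 3.55) and Gabarapl2 (78.5 ± 4.81) followed with ranges that overlapped, and Map1lc3b (57.2 ± 0.939) and Gabarapl1 (38.4 ± 1.36) came last. The mutants kept this order, at 234 ± 10.4, 80.0 ± 6.12, 76.2 ± 1.63, 57.1 ± 1.74 and 35.9 ± 2.34 TPM (SD, n = 4 each). How reads that match several members of the family were assigned is not stated.

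Map1lc3b encodes LC3B, the protein read as the standard marker of autophagosomes, and is listed among genes that ATF4 drives in stressed cells. Its controls held 57.8, 58.0, 57.2 and 55.9 TPM and its mutants 59.6, 56.8, 55.7 and 56.2 TPM. Control and mutant values were interleaved, and the log2 fold change was -0.0042 with an interval from -0.081 to 0.073 (limma adjusted p of 0.996). Gabarapl1 had the smallest p of the family. Its controls held 40.4, 38.2, 37.8 and 37.3 TPM and its mutants 35.6, 33.7, 39.2 and 35.1 TPM, so that mutant replicate 3 lay among the controls and the other 3 below them. The log2 fold change, with its standard error, was -0.097 ± 0.051 (limma, unadjusted p of 0.0896, adjusted p of 0.843).

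Among the cargo receptors, Sqstm1 encodes p62, a target of stress pathways that include ATF4, and was the most abundant at 125, 117, 122 and 127 TPM in controls and 130.2, 123, 124 and 120.0 TPM in mutants. The ranges coincided over most of their length, and the log2 fold change was 0.020 with an interval from -0.065 to 0.10 (limma adjusted p of 0.969). Nbr1, a receptor related to p62, held 67.3, 62.9, 67.3 and 61.9 TPM in controls and 65.8, 67.8, 69.3 and 67.2 TPM in mutants. Its values overlapped between the groups, with a log2 fold change of 0.058 ± 0.039 (SE, adjusted p of 0.890). Optn, for optineurin, which also serves mitophagy, was the least abundant of the receptors at 12.4 ± 0.778 and 12.0 ± 0.719 TPM.

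TFEB and TFE3 are the transcription factors of the lysosome, held in the cytoplasm by mTORC1 when amino acids are plentiful, so their mRNA does not report their activity. Tfeb held 16.2, 16.2, 15.3 and 16.7 TPM in controls and 16.1, 14.3, 16.3 and 15.6 TPM in mutants, with mutant replicate 2 lowest. The log2 fold change, with its standard error, was -0.048 ± 0.056 (limma adjusted p of 0.942). Tfe3 was at 17.3 ± 0.346 and 17.4 ± 1.08 TPM, close to the level of Tfeb.

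LAMP1 and LAMP2 are the major glycoproteins of the lysosome membrane, and LAMP2 is needed in heart for vesicles to fuse with lysosomes. Lamp1, with 4 E-box cores in the window printed above, held 293, 290.3, 279 and 296 TPM in controls and 296, 280.3, 299 and 291 TPM in mutants. Both groups spread over nearly the same range, and the log2 fold change was 0.011 with an interval from -0.063 to 0.085 (limma adjusted p of 0.983). Lamp2 held 118, 112, 117 and 116 TPM in controls and 114, 107, 117 and 110.2 TPM in mutants. The groups overlapped, with mutant replicates 2 and 4 lowest, and the log2 fold change, with its standard error, was -0.043 ± 0.036 (adjusted p of 0.921).

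A list of 12 members that cell studies of amino acid starvation have tied to ATF4 or CHOP was read separately: Map1lc3b, Atg3, Atg12, Atg16l1, Becn1, Gabarapl2, Sqstm1, Nbr1, Atg7, Atg10, Gabarap and Atg5. None passed, 6 log2 fold changes were positive and 6 negative, and their median was 0.000185. They ranged from -0.12 for Atg12 to 0.76 for Atg7. These 2 genes had an unadjusted p below 0.05 in limma, against 6.1% of all genes. The labels name no starvation of the embryos or dams.

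Single libraries also differed within a genotype. As the mean deviation of the 32 genes from their own averages on the log2 scale, control replicate 1 stood at 0.050 and mutant replicate 1 at 0.047, and mutant replicate 2 stood lowest at -0.038. In both libraries numbered 1, 24 of the 32 genes lay above their average, against 10 in mutant replicate 2. Of the sums of listed TPM, mutant replicate 1 had the highest, 949762, and mutant replicate 2 the lowest, 923473. Control replicate 3 had the next highest sum, 944273, with a mean deviation of -0.031 but 19 of the 32 genes above their average. Atg7 (5.61 TPM) and Atg10 (6.00 TPM) were low in that library, beside means of 9.68 and 9.66 TPM over all libraries, and weigh on its mean deviation. Whether the sums bear on the deviations was not tested.

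Beyond the 32 genes, 6 further lists of the pathway held 143 genes, of which 140 were tested and none passed the adjusted threshold. At an unadjusted p below 0.05 there were 2 higher and 5 lower, 7 in all, against 6.1% of all genes. In 5 of the 140 the groups did not overlap, near the 3.68% of all genes: Calcoco1, Wdr45, Snap29, Atp6v1a and Rragd. The median log2 fold change of the 140 was 0.0034.

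**Figure D4:**
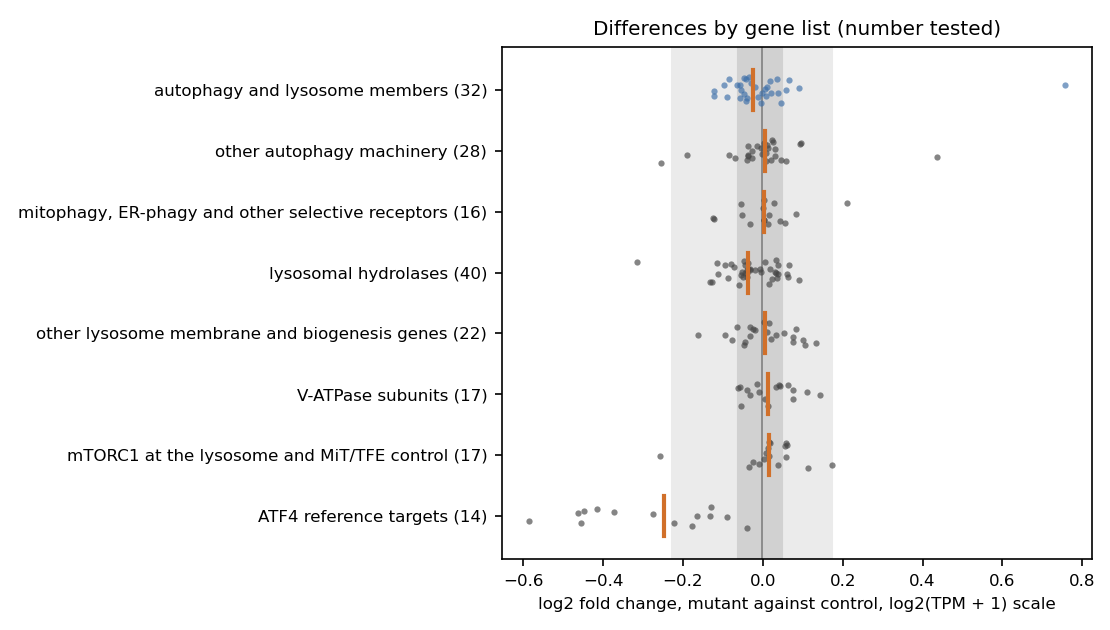
Log2 fold change of each tested gene (points) by list, with the list's median (vertical bar). The dark and light bands hold the middle 50% and 90% of all genes tested, which describe single genes and are no yardstick for a median. The medians were -0.025 for the members and ran from -0.038 (hydrolases) to 0.017 (mTORC1 list) over the other pathway lists.

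In the list of 28 other autophagy genes the median was 0.0054, and 2 genes had an unadjusted p below 0.05. Calcoco1, for a receptor that serves ER and Golgi turnover, held 46.1, 47.9, 48.6 and 45.8 TPM in controls and 44.0, 42.4, 40.3 and 38.1 TPM in mutants. Every mutant lay below every control, with a log2 fold change of -0.19 ± 0.049 (SE, limma adjusted p of 0.720). Wdr45, which encodes the lipid reader WIPI4, held 15.4, 14.1, 15.1 and 14.2 TPM in controls and 13.9, 12.7, 10.9 and 11.2 TPM in mutants. Its groups did not overlap either, and the log2 fold change was -0.26 ± 0.078 (SE, adjusted p of 0.780). The third gene of the list without overlap, Snap29, for a SNARE of vesicle fusion, had higher values in the mutants (19.1 ± 0.675 and 20.5 ± 0.353 TPM, adjusted p of 0.821).

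Of 16 tested receptors for mitochondria, endoplasmic reticulum and other cargo, Bnip3 and Pink1 had an unadjusted p below 0.05. Bnip3, a mitophagy receptor induced by hypoxia, held 166, 154, 144 and 176 TPM in controls and 163, 200.4, 208 and 170.3 TPM in mutants. Mutant replicates 2 and 3 lay above every control and the other 2 within the control range, with a log2 fold change of 0.21 (limma adjusted p of 0.809). Pink1, the kinase that marks damaged mitochondria, was at 63.0 ± 4.33 and 57.6 ± 3.08 TPM, which is a log2 fold change near -0.13 (adjusted p of 0.818). The related receptor Bnip3l was at 85.7 ± 3.04 and 87.4 ± 2.57 TPM.

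Lysosomal hydrolases had the lowest median of the pathway lists, -0.038, with 26 of 40 tested genes negative and 14 positive, and none past the threshold. Over all 15545 genes tested, 8055 were negative. The abundant protease genes differed little: Ctsd was at 385 ± 9.23 TPM in controls and 373 ± 14.9 TPM in mutants, and Ctsl at 113 ± 2.74 and 113 ± 5.49 TPM (SD, n = 4 each). Ctsa, which also protects other hydrolases, was at 93.0 ± 3.46 and 88.0 ± 1.60 TPM, so its log2 fold change was -0.079 (limma, unadjusted p of 0.0485, adjusted p of 0.818). Dnase2a, the lysosomal DNase that digests nuclei engulfed by macrophages, had the largest difference, at 2.55, 2.85, 2.67 and 2.02 TPM in controls and 1.65, 2.24, 1.62 and 1.80 TPM in mutants. Only mutant replicate 2 lay within the control range, and the log2 fold change was -0.32 (unadjusted p of 0.0206, adjusted p of 0.800). Ctss, a cathepsin of myeloid cells, was too low to test, with at most 2.29 TPM in a control and 1.20 TPM in a mutant.

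Macrophage markers were also lower in most mutants. The 12 markers summed to 33.4, 30.3, 25.9 and 20.9 TPM in controls and 18.0, 13.96, 17.7 and 21.2 TPM in mutants, so that control replicate 4 and mutant replicate 4 overlapped. The mean was lower in mutants for 11 of the 12, Lyve1 being the exception, and no marker was at 0 in any library. Of the 9 that were tested, 4 had a negative log2 fold change with an unadjusted p below 0.05, against 3.45% of all genes, and none passed the adjusted threshold. C1qb averaged 4.04 TPM in controls and 1.79 TPM in mutants. The part of macrophage RNA in the hydrolase values was not tested. The sum of the 10 erythroid markers was lower in mutants on average, but the ranges overlapped, 4245 to 5875 TPM against 4551 to 7741 TPM. The mean was lower in mutants for 8 of these 10 and higher for 2, Klf1 and Hbb-bh1. Cardiomyocyte, endocardial and epicardial marker sums also overlapped between the groups.

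The 22 other lysosome membrane and biogenesis genes had a median of 0.0066, and Cd63, a tetraspanin of late endosomes, had the smallest p (148 ± 9.11 and 138 ± 3.13 TPM, limma adjusted p of 0.841). The 17 subunits of the proton pump that acidifies the lysosome had a median of 0.012, with log2 fold changes between -0.061 and 0.14. Atp6v0b had the smallest p among them, at 96.6 ± 1.67 and 101 ± 3.67 TPM (adjusted p of 0.852).

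Of 17 tested genes for mTORC1 at the lysosome and its control of TFEB, Rragd had the smallest p of any gene in these lists. It encodes RagD, the GTPase that presents TFEB to mTORC1 and is itself a known TFEB target. The controls held 64.5, 67.3, 63.5 and 66.5 TPM and the mutants 72.0, 77.0, 73.4 and 73.5 TPM. Every mutant value lay above every control value, by at least the distance from 67.3 to 72.0 TPM. The log2 fold change, with its standard error, was 0.17 ± 0.035, and the adjusted p of 0.470 in limma did not pass. Flcn, for folliculin, which activates RagD, was at 17.7 ± 1.00 and 17.8 ± 1.04 TPM. The median of the list was 0.017.

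**Figure D5:**
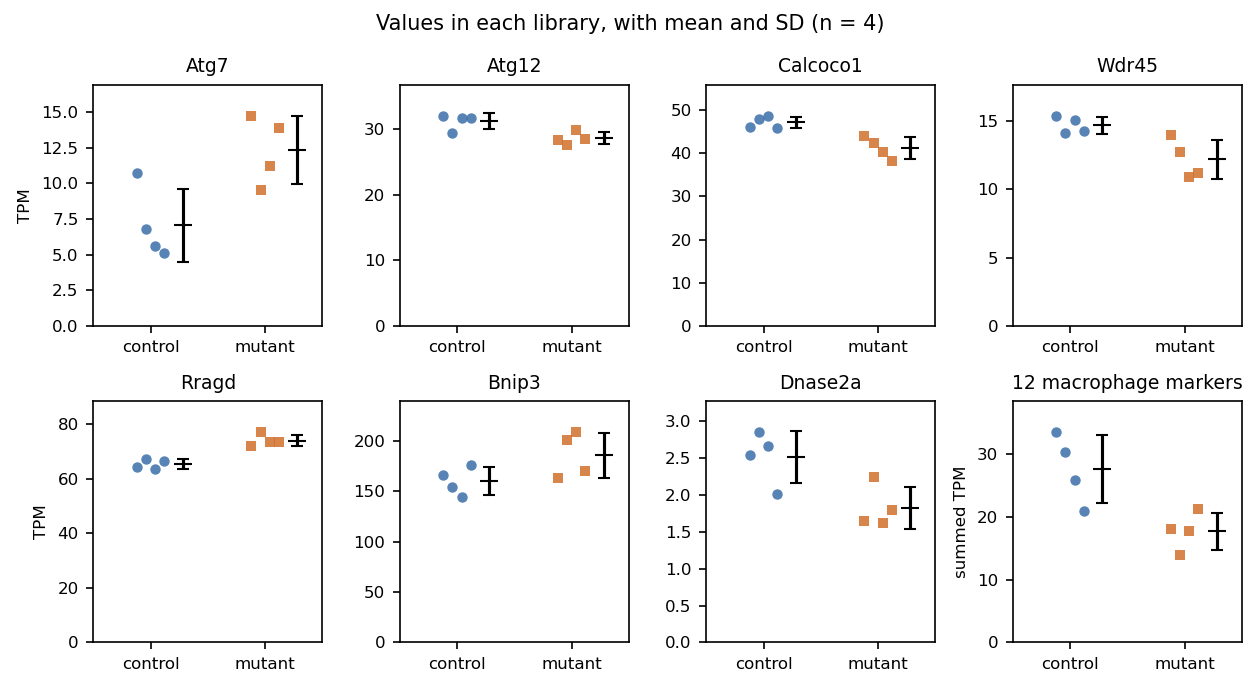
TPM in each control (circles) and mutant (squares) library, with the mean and SD of 4 libraries (bars), for Atg7, Atg12 and 5 further pathway genes, and the summed TPM of 12 macrophage markers. Calcoco1, Wdr45 and Rragd show no overlap between the groups, while Atg7, Atg12, Bnip3, Dnase2a and the marker sum overlap, and none of the 7 genes passed the adjusted threshold.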

How the data were processed

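The authors deposited TPM for each library separately, in 1 table. The submitters' processing notes name FastQC, Trim Galore 0.6.7, HISAT2 2.2.1, StringTie 2.2.1, featureCounts, DESeq2 and GRCm38 (mm10), with no role or order. The annotation and strand setting are not given in the sources used here. All 32 members have the start and end of their RefSeq gene on GRCm38.p6. The listed TPM summed to between 923473 and 949762 per library, and read depth is unknown.

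Genes that reached 1 TPM in 4 or more of 8 libraries were kept, 15545 in all, and analysed as log2(TPM + 1), a scale that understates changes of low genes. Mutants and controls were compared in limma 3.58.1 (R 4.3.3) with a variance trend, no covariate, two-sided p-values and Benjamini-Hochberg adjustment over all genes at 0.05. No list was tested as a set. In simulated data with these means and spreads, 200 of 15545 genes were changed. The share found again was 1.17% for a log2 change of 0.2, 32.3% at 0.3, 68.7% at 0.5 and 92.3% at 1. These shares are over all genes and do not describe the 32 members. How many genes truly differ here is unknown, and with fewer changed genes the adjusted threshold finds a smaller share. Whether replicates came from separate litters is not stated, so p-values measure the spread between these samples.

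The members and lists were chosen with earlier results of these data known. Values in every library are given for members with an unadjusted p below 0.05 or no overlap between groups, otherwise for the member of each role with the smallest p, and for Sqstm1, Map1lc3b and Lamp1. In other lists up to 4 genes with an unadjusted p below 0.05 are named, or the 1 with the smallest p. Any other gene, and the choice of promoters printed, came after values were seen. Alternatives were another pseudocount, 2 other filters, 3 other scalings, 2 other variance models, the replicate number as a block, and each library left out. Protein sequences were not used here. Python 3.11.15, pandas 2.3.3 and matplotlib 3.10.9 were used for tables and plots.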

Additional observations from a re-analysis of the deposited data

Results flagged for a closer look

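The 4 libraries of a genotype were checked for 1 value set apart from the other 3, in 82 such groups over the 32 members and 9 other pathway genes. A value was set apart when the gap to the next one exceeded the 95% critical value of Dixon's test. There were 4 such groups, and at the 5% rate of the test 4.1 would occur by chance.

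Among controls, replicate 2 was low for both Atg12 (29.5 TPM, the other 3 between 31.7 and 32.0) and Atg14 (6.83 TPM, the other 3 between 7.95 and 8.09). For Atg12 this value lay toward the mutants, and leaving the library out gave a log2 fold change of -0.15. Among mutants, replicate 3 was low for Atg10 (6.97 TPM, the other 3 between 9.94 and 10.5), and control replicate 3 was also the lowest control for this gene. Mutant replicate 4 was low for Atg16l1 (17.9 TPM, the other 3 between 19.7 and 19.8), and leaving it out gave -0.032.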

How the results depend on the processing

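There were 17 alternatives, all planned, except that the members' median under the 2 other variance models was added after the data were seen. The number of members past the threshold was 0 in each of them, with 1 to 3 members at an unadjusted p below 0.05 and a lowest adjusted p between 0.279 and 0.946 (limma). The median log2 fold change of the members stayed negative, and ranged from -0.031 to -0.0029 when 1 library was left out. Over all genes the 6 calls became 0 with no filter, 0 with no variance trend and 0 with the replicate number as a block, and 0 to 3 when 1 library was left out. Quantile normalization gave 6 calls, all lower in mutants, and so did TPM rescaled without mitochondrial and haemoglobin genes, against 1 higher and 5 lower in the fit reported above. Median-of-ratios scaling gave 7 calls, 1 higher and 6 lower. For the changed counts the cause was not tested, except that the fits without a library have fewer samples and the fit without a filter tests 35731 features. No paired reading is made, as the replicate numbers are not known to link libraries. Deviations of same-numbered libraries correlated between -0.082 and 0.035, a check over all genes that cannot exclude a weak pairing.

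Among 41 members and pathway genes, 36 of 696 values changed sign, in 12 genes, and the values with the changed sign were at most 0.075 in size. Rb1cc1 was at 0.00084 with median-of-ratios scaling, 0.0027 with quantile normalization and 0.0029 with weights per library. Becn1 was at -0.0057 with quantile normalization, -0.00056 with TPM rescaled without mitochondrial and haemoglobin genes and -0.00069 with weights. Lamp1 was at -0.0089 with quantile normalization. With 1 library left out, Atg10 ranged from -0.25 to 0.075, Atg101 from -0.015 to 0.099, Atg4b from -0.048 to 0.015, Becn1 from -0.0037 to 0.020, Lamp1 from -0.0071 to 0.030, Map1lc3a from -0.071 to 0.0082, Map1lc3b from -0.025 to 0.0072, Pik3r4 from -0.022 to 0.051, Rb1cc1 from -0.016 to 0.020, Sqstm1 from -0.0024 to 0.037, Tfe3 from -0.018 to 0.048 and Wipi2 from -0.052 to 0.018. Dnase2a had no value with a filter at 5 TPM.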
